A study of Mus musculus with 9 samples.

Results

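The 3 Empty vector libraries of the series, out of 9 in all, are described here as one culture, with its genes ranked by mean normalized count. All 17266 genes of the table were ranked, and the fusion libraries were not used for the ranking. Lineage-negative marrow cells of female C57B/6 mice, 6 weeks old, were isolated with magnetic beads and infected with a retrovirus made from the MigR1-IRES-GFP vector without an insert. After 5 days in RPMI medium to which SCF, IL-3 and IL-6 had been added, GFP-positive cells were sorted, and their polyadenylated RNA was sequenced in bulk. The mice were untreated before their marrow was taken. Whether replicates 1, 2 and 3 were separate cultures or mice is not stated in the labels, and their spread may be technical.

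Lineage depletion removes marrow cells that already carry surface antigens of mature blood cells and leaves stem and progenitor cells. IL-3 acts on progenitors of several myeloid lineages and on mast cells and basophils, SCF (the ligand of the receptor Kit) keeps progenitors and mast cells alive, and IL-6 signals through the shared receptor chain gp130. Cultured with these cytokines, marrow progenitors divide and can mature into macrophages, granulocytes, mast cells, basophils and megakaryocytes. The question asked of these libraries was which of these programmes the cells expressed, and how much the 3 libraries varied.

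The libraries held 17.52, 20.38 and 18.59 M reads assigned to genes in replicates 1, 2 and 3, and below 3 values in a row always follow that order. Of the 17266 genes, 17262 had a value above 0 in at least 1 library, 13397 had a mean of at least 10 normalized counts and 3540 a mean of at least 1000. Every gene ranked reached at least 5.22 normalized counts in at least 1 of the 9 libraries of the series. The near-complete detection therefore reflects which genes were ranked. Protein-coding genes held 98.2% of the mean counts. Levels of different genes can be compared only per length, so a length-scaled level was also computed: normalized counts per kilobase of exon, scaled in each library to a total of 1000000 over the 16925 genes with a known length. In bulk RNA, fewer cells of a type and less RNA per cell cannot be told apart. As a check of the sex label, Xist, the RNA of the inactive X chromosome, had 14716, 15697 and 18023 normalized counts.

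Macrophage and lysosomal transcripts filled the top of the ranking. After mt-Co1, a mitochondrially encoded subunit of cytochrome oxidase, the highest means in normalized counts belonged to Ctsb (cathepsin B, a lysosomal protease), Gpnmb (a glycoprotein of macrophages and lysosomes), Apoe (a lipid carrier), Spp1 (the secreted protein osteopontin), Psap (the precursor of the saposins, which help break down lipids in lysosomes) and Mmp12 (macrophage elastase). Fth1 (the iron store ferritin), Lyz2 (lysozyme) and Ctsd (cathepsin D) completed the first 10. Ranks 11 to 20 were held by Ctsl, Ccl6, mt-Cytb, Ctss, mt-Nd5, Lgals3, mt-Nd1, Vim, Chil3 and Selenop.

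Spp1 and Mmp12 varied most between the libraries among these 10 genes. Ctsb had 240278, 256764 and 245095 normalized counts and Gpnmb had 223267, 268693 and 246457, so that both stayed within 1.20-fold over the libraries. Apoe had 279882, 200024 and 220026 normalized counts, highest in replicate 1. Spp1 had 90893, 367273 and 150935 normalized counts, so that it was the most abundant transcript of replicate 2, while mt-Co1 led the other libraries. Mmp12 showed the same order of libraries, with 79392, 298145 and 142940.1 normalized counts. Lyz2 had 158870.2, 116079.7 and 134115 normalized counts, and its near-identical neighbour Lyz1 had 226, 149.8 and 243, with the division of reads between them uncertain.

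Per length the leaders changed in part. The first 20 by length-scaled level were mt-Co1, Spp1, Apoe, Lyz2, mt-Cytb, mt-Nd1, Psap, B2m (the light chain of MHC class I), Ctss (cathepsin S), mt-Nd6, Ctsd, Ccl6 (a chemokine), mt-Nd5, Fth1, mt-Nd2, Lgals3 (galectin-3), Chil3 (a chitinase-like secreted protein), Ctsb, Gpnmb and Ccl8 (a chemokine). The length-scaled level of mt-Co1 was 33929 ± 5228 (mean ± SD, n = 3 here and below), of Spp1 22485 ± 15422, of Apoe 20197 ± 3853 and of Lyz2 19184 ± 3346. Spp1 alone had length-scaled levels of 10253, 39809.7 and 17394, above mt-Co1 in replicate 2 and below Psap in replicate 1, so that its place is not fixed. A gene annotated on the same strand shares 18.8% of the exon bases of Spp1. B2m, at 11973 ± 1080.0, and Ctss, at 11922 ± 1818, had overlapping ranges, so that neither is placed above the other. The place of mt-Nd6 is uncertain, because it lies beside mt-Nd5 on the other strand of the mitochondrial genome and the strand setting of the counting is not given in the sources used here.

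**Figure D1:**
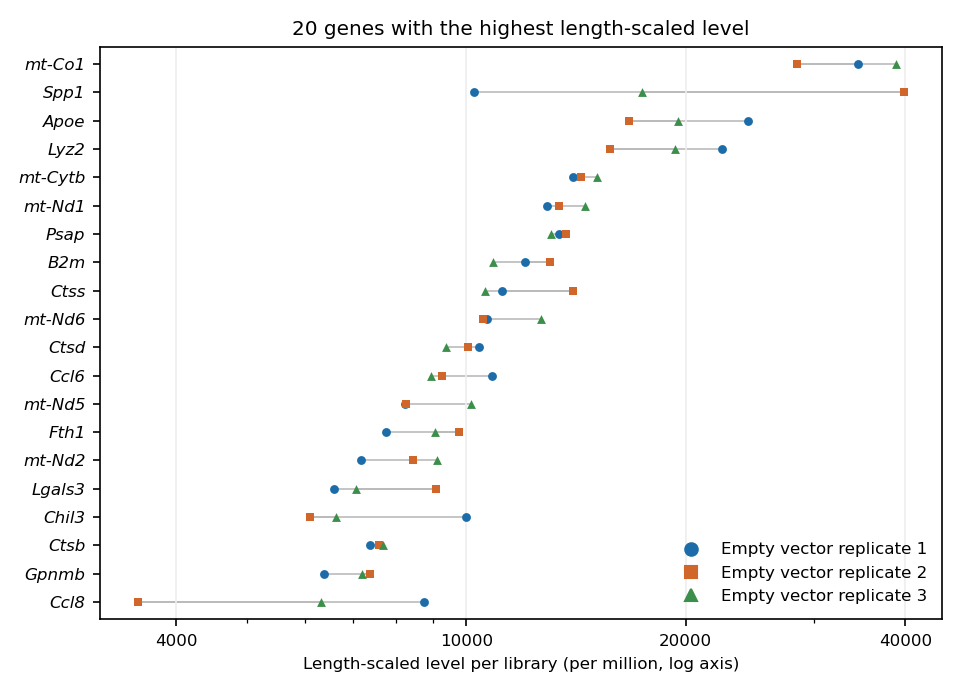
Length-scaled level (normalized counts per kilobase, scaled to a total of 1000000, log axis) of the 20 highest genes, with 1 point for each Empty vector library and a line over their range. Spp1 and Ccl8 have the widest ranges of the 20, with Spp1 highest in replicate 2 and Ccl8 highest in replicate 1.

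A small part of the genes held much of the RNA. The first 10 genes held 11.85% of the mean normalized counts, the first 100 held 28.81% and the first 1000 held 57.7%. Over the libraries the share of the first 10 was 10.95%, 12.89% and 11.67%, and 672, 541 and 635 genes were enough to hold 50% of a library's counts (618 on the mean). On the length-scaled level 200 genes were enough and the first 100 held 42.89%. In normalized counts 179 genes had a mean of at least 10000, and 11 of at least 100000. Of the first 100 by length-scaled level, 13 belonged to the macrophage list, 12 to the lysosome list, 8 to the cytosolic ribosomal proteins and 7 to the mitochondrial genome, and 36 were in none of the 33 lists.

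The lists of lineage genes were spread over the whole range of levels. A member's percentile is its place among all genes ordered by length-scaled level, so that 1693 of 16925 genes lie in the top 10%. The median percentile was 99.3 for the macrophage list, 95.2 for primary granule genes of neutrophils, 95.0 for megakaryocytes, 90.6 for monocytes, 90.5 for mast cells and 88.1 for basophils. It was 68.8 for stem and progenitor genes, 59.9 for red cell precursors and 57.6 for late neutrophil genes. The lists of B cells (52.0), dendritic cells (47.1), eosinophils (45.6), T cells (31.6), stroma and endothelium (23.3) and NK cells (9.5) came last, near or below the middle of all genes. The NK value rests on 5 measured genes and was 4.1 without replicate 2; with genes of a mean under 10 left out of the ranking, 1 NK member (Nkg7) remained, at 88.6. Members named below beyond the first few of a list were chosen after their values were seen. The medians cover only the members analysed here, 9 of 16 for T cells, 8 of 14 for B cells, 5 of 9 for NK cells and 15 of 21 for red cell precursors. A percentile says where a list lies in the RNA of the culture and not how many cells of a type it held.

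**Figure D2:**
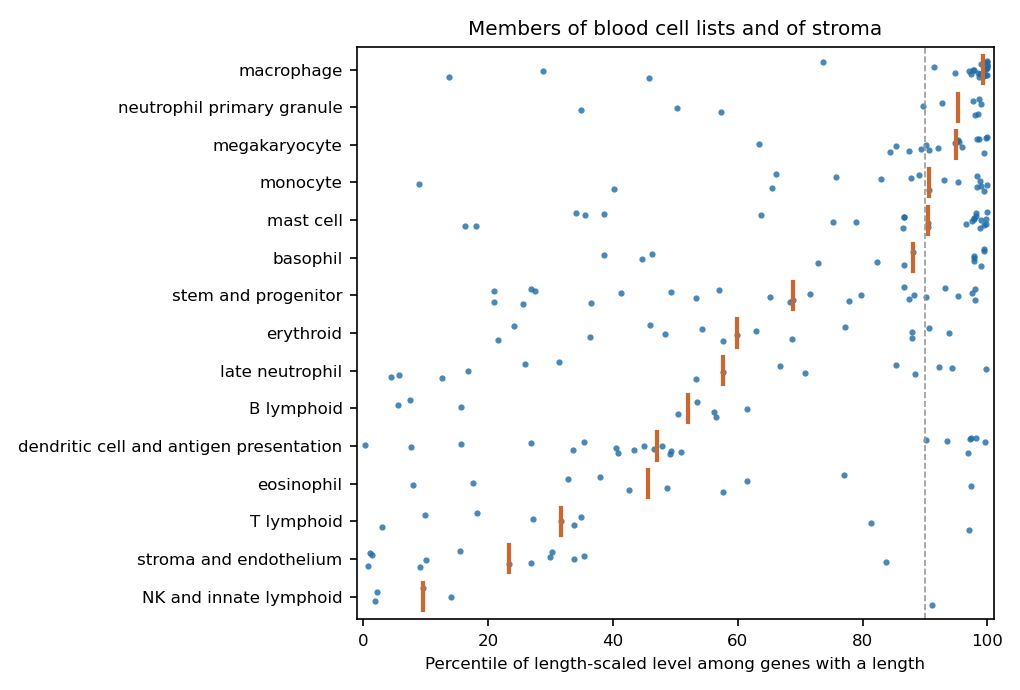
Percentile of the length-scaled level of each list member (points) and the list's median (bars), with the top 10% of genes to the right of the dashed line. The macrophage members crowd at the right edge, while mast cell, basophil and stem and progenitor members stretch over most of the range and the lymphoid and stromal members lie mainly in its left part.

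Macrophage genes took a larger share of the RNA than any other lineage list and were almost completely detected. Of the list's members, 25 of 29 with a length were in the top 10% and 28 of 29 had a mean of at least 10 normalized counts. Together they took 7.51%, 10.1% and 7.98% of the normalized counts. The 3 chains of complement C1q, which macrophages secrete, had 15259, 13703 and 12402 (C1qa), 36302, 35737 and 32690.5 (C1qb) and 30064, 27288 and 28658 (C1qc) normalized counts. Genes of macrophage membrane proteins were abundant as well, with 45804, 62665 and 60492 normalized counts for Mrc1 (the mannose receptor), 9195, 11892 and 10027 for Adgre1 (the antigen F4/80) and 25024, 32466 and 28820.0 for Cd68. The lipoprotein lipase gene Lpl had 29623, 75518 and 30768 normalized counts and stood highest in replicate 2. The genes of some tissue macrophages were low: Timd4, a receptor for dying cells, had 3.82, 6.1 and 5.33, Marco, a scavenger receptor, 32.5, 7.84 and 11.5 and Vsig4, a complement receptor, 26.8, 71.4 and 74.6 normalized counts.

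Some macrophage genes ranged widely between libraries. Of the 26 members with a mean of at least 100 normalized counts, 6 had a highest library at least 2-fold above the lowest, a range found in 257 of all 10055 such genes (2.56%). They were Spp1, Mmp12, Lpl, Cd36, the integrin chain Itgam and the integrin chain Itgax, all highest in replicate 2. The count over all genes was 49 without replicate 2, 104 without replicate 1 and 197 without replicate 3, and over the macrophage list it was 1, 4 and 6. Itgax (CD11c) had 4116, 10131 and 6644 normalized counts. Arg1, the arginase of macrophages exposed to IL-4 or IL-13, had 20112, 28783 and 23853 and Msr1, a scavenger receptor, 6009, 11740.0 and 7374 normalized counts. Trem2, a lipid receptor, had 6592, 10248 and 8319 and Mertk, a receptor for dying cells, 6414, 8533 and 6625 normalized counts, with less spread.

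The monocyte list was less even. In it 9 of 17 members were in the top 10%, and the list took 0.878%, 1.07% and 0.918% of the normalized counts. Among its most abundant members, Ctss, Ms4a6d (a membrane protein of myeloid cells) and F13a1 (coagulation factor XIII) are also expressed by macrophages. F13a1 had 13636, 21178 and 23837 normalized counts. Genes that mark circulating inflammatory monocytes stood lower, Ccr2 (a chemokine receptor) at a length-scaled level of 78.7 ± 22.5 and Ly6c2 (the antigen Ly6C) at 20.8 ± 5.63. Cx3cr1, a chemokine receptor of patrolling monocytes, had 5.74, 9.58 and 4.44 normalized counts, close to the floor of 3 reads set for a value that can be told from 0. Of the 16 members with a mean of at least 100, 4 had a 2-fold range, against the 2.56% of all genes. The count was 0 without replicate 2, 2 without replicate 3 and 3 without replicate 1.

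Lysosomal genes were abundant, and their spread was not below that of other genes. Their median CV was 11.3%, against 8.25% for all genes with a mean of at least 100, which all 21 had. None of the 21 had a 2-fold range, which was found in 2.56% of all such genes. Of 21 members 20 were in the top 10%, the median percentile was 99.6, and the list took 5.99%, 6.56% and 6.07% of the normalized counts. Psap had 198105, 210732 and 188960.4 and Ctsd 131732, 132393 and 116203 normalized counts, with no library far from the others. In 19 of the 21 the highest value was in replicate 2, against 36.4% of all genes, though by little. The median log2 of library value over gene mean, with 1 count added to each, was -0.04, 0.14 and -0.08. Ctsl (cathepsin L) differed most, with 77589, 146332 and 105739.7 normalized counts. Grn (progranulin) had 31526, 35195 and 28926, Lamp1 (a membrane protein of lysosomes) 40657, 39275 and 39109 and Lgmn (legumain, a protease) 35074, 44779.6 and 37969 normalized counts.

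Many lysosomal genes are known to carry the E-box letters CACGTG, which the factors TFEB and MITF can bind, near their starts. The 250 bases before the listed starts of RefSeq genes (GRCm38.p6) were searched on both strands, on which these letters read the same. A gene was counted if any of its listed starts had them. CACGTG was found for 6 of 17 lysosomal genes with a listed start, Ctsd, Ctsl, Lamp1, Lgmn, Ctsa and Gaa. It was found for 978 of 9920 genes (9.86%) with a mean of at least 10. The letters were not particular to this list. They were also found for 3 of 9 translation factor, 3 of 14 cytoskeleton and 3 of 14 immediate early genes, but for 0 of 21 macrophage genes. The Ctsd sequence is shown because it holds the letters in 2 places (chr7:142387828-142388077, minus strand, CACGTG in capitals, 5′ to 3′, ending at the base before the start):
Ctsd: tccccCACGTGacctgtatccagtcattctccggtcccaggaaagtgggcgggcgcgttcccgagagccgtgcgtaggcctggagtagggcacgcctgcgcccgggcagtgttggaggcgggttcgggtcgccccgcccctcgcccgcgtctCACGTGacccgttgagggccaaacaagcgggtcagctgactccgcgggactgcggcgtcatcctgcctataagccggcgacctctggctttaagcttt

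Matrix-degrading enzymes were abundant and most were highest in replicate 2. Of 14 members 9 were in the top 10%, and they took 1.02%, 2.63% and 1.64% of the normalized counts. Mmp8, the neutrophil collagenase, had 15653, 36032 and 27173 normalized counts. Mmp13, another collagenase, had 6633, 29626 and 11871 normalized counts. Mmp19, a further metalloprotease, had 15953, 34837 and 25604 normalized counts, and a gene on the opposite strand shares 22.3% of its exon bases. Each of these was highest in replicate 2 and lowest in replicate 1, as was Mmp12. Adam8, a membrane protease of leukocytes, had 23822, 32286 and 29690.1 and the inhibitor Timp2 15931, 17978 and 16101 normalized counts, with less spread. Mmp9, the gelatinase of neutrophil granules, had 7.65, 19.2 and 7.1 normalized counts. In all, 11 of 14 members were highest in replicate 2, against 36.4% of all genes with a mean of at least 10, and 9 were lowest in replicate 1, against 30.1%. Of the 12 with a mean of at least 100, 5 had a 2-fold range, against 2.56% of all genes. The count was 0 without replicate 2, 3 without replicate 1 and 4 without replicate 3.

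The letters TGANTCA, which AP-1 factors such as Fos and Jun can bind, were found in the 250 bases before the start for 3 of 9 matrix genes with a listed start (Mmp12, Mmp13 and Plaur) and for 565 of 9920 genes (5.7%), searching both strands. The letters were not particular to this list. They were also found for 6 of 17 interferon response, 4 of 13 cytokine ligand, 4 of 13 dendritic and 3 of 12 megakaryocyte genes. Of 23 cell division genes and 29 blood transcription factors, 0 had them. Mmp12 has 2 listed starts, and the first that holds the letters is shown. Its stretch lies inside the annotated gene, which begins at chr9:7344381. The promoters of Mmp12 (chr9:7347124-7347373, plus strand) and Mmp13 (chr9:7272264-7272513, plus strand) are shown for the matrix enzymes with the widest range over the libraries, in GRCm38.p6 and with TGANTCA in capitals:
Mmp12: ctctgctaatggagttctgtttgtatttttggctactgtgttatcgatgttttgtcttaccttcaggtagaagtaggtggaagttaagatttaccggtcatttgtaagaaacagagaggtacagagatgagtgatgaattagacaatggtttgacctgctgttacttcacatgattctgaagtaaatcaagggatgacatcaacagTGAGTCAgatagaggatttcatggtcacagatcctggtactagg
Mmp13: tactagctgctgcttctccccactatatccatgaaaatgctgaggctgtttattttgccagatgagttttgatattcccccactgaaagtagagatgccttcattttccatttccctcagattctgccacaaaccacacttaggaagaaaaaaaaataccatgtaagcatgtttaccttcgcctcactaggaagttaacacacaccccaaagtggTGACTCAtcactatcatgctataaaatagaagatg
The AP-1 genes themselves were abundant, with 5124, 6562 and 7379.7 normalized counts for Fos, 4407, 5765 and 4718 for Jun and 5228, 4988 and 5191 for Junb. Jun was highest in replicate 2, Fos in replicate 3 and Junb in replicate 1. Whether any of them acts on the matrix genes was not tested.

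Mast cell and basophil genes formed another programme, and most of it was highest in replicate 1. Of the mast cell list 14 of 25 and of the basophil list 6 of 13 members were in the top 10%, and the mast cell list took 1.18%, 0.756% and 0.907% of the normalized counts. The basophil list, which shares 3 genes with it (Hdc, Ms4a2 and Fcer1a), took 0.455%, 0.217% and 0.308%. Cpa3, the carboxypeptidase of mast cell granules, had 56566, 31064 and 32102 normalized counts, and Hdc, the enzyme that makes histamine, 27364, 17779 and 20148. The high-affinity IgE receptor was represented by Fcer1a with 2668, 1167 and 1419, Ms4a2 (the beta chain) with 6844, 3280.0 and 4813 and Fcer1g (the gamma chain, shared with other receptors and cells) with 10666, 10394 and 10456 normalized counts. The basophil proteases Mcpt8 and Prss34 had 8387, 3257 and 4846 (Mcpt8) and 11088, 2927 and 5089 (Prss34) normalized counts. All of these but Fcer1g were highest in replicate 1 by a clear margin, and Fcer1g differed little between the libraries. The mast cell list also holds Srgn, with 28187, 28335 and 27298 normalized counts, and Cd63, which is in the lysosome list too. The list's share of the counts and its members in the top 10% are therefore not all particular to mast cells.

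Within the mast cell genes the proteases were unequal. The chymase Cma1 had 2411, 1438 and 2298 normalized counts and the tryptase Tpsb2 5163, 2188 and 2278, while its near-identical neighbour Tpsab1 had 58.3, 25.2 and 23.1, a division of reads that is uncertain. Mcpt4, a chymase of connective tissue mast cells, had 126, 94.0 and 115, and Mcpt1 and Mcpt2, proteases of mucosal mast cells, had 8.6, 22.6 and 14.2 (Mcpt1) and 24.9, 27.9 and 18.6 (Mcpt2) normalized counts. Mrgprb2, a receptor of connective tissue mast cells, had 7.65, 10.4 and 0.89 normalized counts. The cytokine genes of basophils and mast cells were low, with 81.2, 30.5 and 34.6 normalized counts for Il4 and 51.6, 4.35 and 23.97 for Il13. Gzmb (granzyme B, a serine protease also made by mast cells) had 10171, 4716 and 10488 normalized counts and was low in replicate 2 alone.

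Over the libraries, 16 of 24 mast cell and 11 of 13 basophil members with a mean of at least 10 were highest in replicate 1, and 15 and 12 of them lowest in replicate 2, against 37.8% and 37.3% of all genes. The median log2 of the library value over the mean was 0.25, -0.33 and -0.09 for mast cells and 0.50, -0.60 and -0.17 for basophils. Of the members with a mean of at least 100, 6 of 20 mast cell and 6 of 11 basophil genes had a highest library at least 2-fold above the lowest, against 2.56% of all genes. Without replicate 1 these counts were 1 and 0, without replicate 2 they were 2 and 1, and without replicate 3 they stayed 6 and 6. The letters GATAA, the core of the sites of GATA factors, lay within 250 bases before the start of 10 of 21 mast cell and 6 of 12 basophil genes with a listed start, against 1772 of 9920 genes (17.9%), both strands searched. Cpa3, the most abundant of the mast cell list, is shown (chr3:20242182-20242431, minus strand, GRCm38.p6, GATAA in capitals):
Cpa3: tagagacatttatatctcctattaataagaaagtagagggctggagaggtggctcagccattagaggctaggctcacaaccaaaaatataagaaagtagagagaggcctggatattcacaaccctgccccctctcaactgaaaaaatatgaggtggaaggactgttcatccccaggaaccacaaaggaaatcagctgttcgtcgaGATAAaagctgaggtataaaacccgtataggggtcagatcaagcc

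Eosinophil genes were scarce beside those of mast cells. Ear2 alone, a ribonuclease of eosinophils that has close relatives, was in the top 10% among 10 members, with 1392, 1104 and 542 normalized counts. Prg2, the major basic protein of eosinophil granules, had 235, 145 and 115 normalized counts, Epx, the eosinophil peroxidase, had 59.3, 16.5 and 31.1, and Siglecf, a surface lectin of eosinophils, had 239.9, 275 and 239.7. The receptors for IL-5 and eotaxin, Il5ra and Ccr3, had 8.6, 8.71 and 18.6 (Il5ra) and 3.82, 3.48 and 5.33 (Ccr3) normalized counts. The list took 0.0136%, 0.00958% and 0.007% of the normalized counts.

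Early neutrophil genes had a higher median percentile than late ones, 95.2 against 57.6, although the late list held more of the normalized counts in replicates 2 and 3. Primary granule genes, which promyelocytes express, were in the top 10% in 6 of 10 cases and took 0.167%, 0.119% and 0.146% of the normalized counts. The list also holds Cebpa, a transcription factor gene rather than a granule gene, which is 1 of these 6, at percentile 98.5. Mpo, the myeloperoxidase, had 10077, 7575 and 8907 normalized counts, Ctsg (cathepsin G) 4310.0, 2600.0 and 3359, Elane (neutrophil elastase) 1921, 1211 and 1699.5 and Prtn3 (proteinase 3) 1308, 791 and 1057. Of the 10 members 9 were highest in replicate 1 and 9 were lowest in replicate 2, against 37.8% and 37.3% of all genes. Of the late genes, 3 of 15 were in the top 10% (Mmp8, S100a9 and S100a8). The late list took 0.119%, 0.22% and 0.187% of the normalized counts, and most of this was the collagenase gene Mmp8, with 15653, 36032 and 27173. Ltf (lactoferrin of secondary granules) had 61.2, 16.5 and 40.9 normalized counts, Camp (the cathelicidin) had 8.6, 1.74 and 5.33 and Lcn2 (lipocalin 2) had 419, 212 and 284. S100a8 and S100a9, the abundant calcium-binding proteins of mature neutrophils, had 516, 366 and 329 (S100a8) and 502, 293 and 389 (S100a9) normalized counts. Retnlg, Ly6g and Stfa2 were not analysed here.

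Megakaryocyte genes were abundant, and most were highest in replicate 3 and lowest in replicate 2. All 18 members had a mean of at least 10 normalized counts, 13 of 18 were in the top 10%, and they took 0.68%, 0.541% and 0.795% of the normalized counts. The platelet chemokines Pf4 and Ppbp had 21722, 16721 and 24949 (Pf4) and 15717, 11889 and 21943 (Ppbp) normalized counts. The integrin chains of the platelet fibrinogen receptor, Itga2b and Itgb3, had 14346, 11513 and 15856 (Itga2b) and 13337, 10484 and 14949 (Itgb3) normalized counts. The genes of the von Willebrand factor receptor had 2309, 1806 and 2833 (Gp1ba), 1866, 1438 and 2373 (Gp1bb), 2006, 1221 and 2095 (Gp5) and 728, 589 and 959 (Gp9) normalized counts. Each of these 8 was highest in replicate 3 and lowest in replicate 2. Over the list 16 of 18 members were highest in replicate 3 and 16 lowest in replicate 2, against 25.8% and 37.3% of all genes. Vwf, the von Willebrand factor, had 4689, 5069 and 5489 normalized counts. Plek, whose mean count was above that of Pf4, had 23523, 24756 and 25749 normalized counts and was lowest in replicate 1.

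GATAA was found before the start of 5 of 12 megakaryocyte genes with a listed start (Plek, Gp1ba, Gp5, Gp9 and Gp6). It was also found for 7 of 10 erythroid and 8 of 17 interferon response genes with a listed start, against the 17.9% of all genes. The promoter of Gp9 is shown as one gene of the receptor whose 4 genes shared the same order of libraries (chr6:87777820-87778069, plus strand, GRCm38.p6, GATAA in capitals):
Gp9: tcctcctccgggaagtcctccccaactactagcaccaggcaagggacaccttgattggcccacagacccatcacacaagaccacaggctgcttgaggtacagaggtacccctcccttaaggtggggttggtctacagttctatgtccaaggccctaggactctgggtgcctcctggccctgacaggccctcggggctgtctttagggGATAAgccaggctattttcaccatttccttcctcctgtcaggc

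Red cell genes were low, apart from a few shared with other cells. In the top 10% were 2 of 15 members, and the list took 0.0494%, 0.0294% and 0.0489% of the normalized counts. Car2 and Car1, carbonic anhydrases, had 1641, 1620.4 and 1896 (Car2) and 428, 306 and 709 (Car1) normalized counts, and Gata1, a transcription factor of red cells, megakaryocytes and mast cells, had 1383, 845 and 1398. The globin genes stood at 44.9, 13.1 and 36.4 (Hba-a1), 124, 103 and 190.0 (Hbb-bt) and 3.82, 0.87 and 8.88 (Hbb-bs) normalized counts, and their near-identical copies make the division of reads uncertain. Klf1, a factor needed for red cell genes, had 109.9, 54.0 and 121 normalized counts. Of the 14 members with a mean of at least 10, 11 were highest in replicate 3 and 13 lowest in replicate 2, against 25.8% and 37.3% of all genes. Alas2, Slc4a1, Epb42, Ahsp, Trim10 and Hba-a2 were not analysed here.

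Transcripts of stem and progenitor cells were present at moderate levels. Of this list 6 of 25 members were in the top 10%, and the list took 0.236%, 0.17% and 0.207% of the normalized counts. The highest per length were Cd48, a surface protein of progenitors and most leukocytes, at 349 ± 16.6, Ly6a (the antigen Sca-1) at 346 ± 89.7, Gata2 at 277 ± 101.2 and Lmo2, a bridging factor of blood progenitors, at 165 ± 12.4. Cd34 had 4492, 4671 and 5057 normalized counts. Genes with a narrower place in stem cells were low: Hlf had 63.1, 46.1 and 52.4, Mecom 89.8, 44.4 and 33.7, Hoxa9 164, 124 and 178 and Procr (the protein C receptor) 181, 311 and 171 normalized counts. Flt3, a receptor of early lymphoid and myeloid progenitors, had 43.0, 43.5 and 54.2 normalized counts. Fgd5 was not analysed here.

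T cell and NK genes were mostly at the low end, and B cell genes were divided between the low end and the middle. Cd3e, of the T cell receptor complex, had 14.3, 10.4 and 18.6 normalized counts, Lck, a kinase of T cells, 26.8, 22.6 and 19.5, Cd79a, of the B cell receptor, 2.87, 2.61 and 0 and Pax5, a factor of B cells, 3.82, 10.4 and 11.5. Eomes, a factor of NK and T cells, had 3.82, 1.74 and 0.89 normalized counts and Klrb1c (the antigen NK1.1) 0.96, 9.58 and 3.55. The exceptions were Il7r, the IL-7 receptor chain listed with T cells, at 3952, 8459 and 5933 normalized counts, and Thy1, at 1009, 403 and 807. Nkg7, a granule protein of cytotoxic cells, had 524, 342 and 551 and Blnk, an adaptor of B cell receptor signalling that macrophages also express, 514, 716 and 402 normalized counts. Blnk lay at percentile 61.4 of the length-scaled level, Cd22, an inhibitory receptor of B cells, at 56.5, Ighm, the heavy chain of IgM, at 56.1 and Cd79b, of the B cell receptor, at 53.5. The normalized counts of the last 3 were 357, 407 and 307 (Cd22), 90.8, 122 and 177 (Ighm) and 92.7, 70.5 and 95.0 (Cd79b). In the top 10% were 1 of 9 T cell members, 1 of 5 NK members, 0 of 8 B cell members and 0 of 13 stromal members. The T cell list took 0.0306%, 0.0511% and 0.0418% of the normalized counts and the B cell list 0.00649%, 0.00786% and 0.00644%. The NK list took 0.00319%, 0.00207% and 0.00342% and the stromal list 0.0157%, 0.0112% and 0.014%.

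In the dendritic list the genes of MHC class II stood highest, and the list took 0.205%, 0.254% and 0.184% of the normalized counts. Cd74, the invariant chain, had 15514, 19148 and 10796 normalized counts, and H2-Ab1, H2-Aa and H2-Eb1, the class II chains, had 4381, 6582 and 3841 (H2-Ab1), 4467, 7220.0 and 4216 (H2-Aa) and 2345, 3432 and 2199 (H2-Eb1). Macrophages and B cells also express these. Of the 22 members 7 were in the top 10%, while Zbtb46, a factor of classical dendritic cells, had 22.0, 23.5 and 25.8, Xcr1, a chemokine receptor of cross-presenting dendritic cells, 0.96, 0 and 0.89 and Siglech, a lectin of plasmacytoid dendritic cells, 4.78, 0.87 and 7.1 normalized counts. In the stromal list Pecam1, an adhesion protein of endothelium that platelets and leukocytes carry too, was at percentile 83.8 and all other members were at or below percentile 35.3. Cdh5, a cadherin of endothelium, had 5.74, 6.97 and 7.99, Col1a1, a collagen chain of stroma, 9.56, 29.6 and 15.98 and Pdgfra 3.82, 4.35 and 3.55 normalized counts.

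The label describes the cells as lineage negative, and the libraries were taken after 5 days of growth. Of antigens often used for depletion, Itgam (CD11b) was at percentile 98.8 of the length-scaled level, with 9614, 21845 and 13305 normalized counts. Ptprc (CD45, whose B220 form is used) had 4527, 6007 and 4652 normalized counts and is common to white blood cells. Cd3e, Cd4 and Klrb1c were at percentiles 18.2, 34.9 and 9.5, and Ly6c2 (Ly6C, part of the epitope of the antibody to Gr-1) at 66.1. Of the 6 measured, only Itgam was in the top 10%. The labels do not give the antibodies used, and Ly6g, Cd5, Cd8a and Ly6c1 were not analysed here.

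The receptors of the added cytokines were all expressed, and 3 of 6 were in the top 10%. The 2 beta chains were highest, Csf2rb (shared by IL-3, IL-5 and GM-CSF) with 24277, 24931 and 20664 and Csf2rb2 (specific to IL-3 in the mouse) with 19059, 14192 and 13208 normalized counts, and reads of these near-identical neighbours may be divided uncertainly. Il3ra, the IL-3 receptor alpha chain, had a length-scaled level of 65.0 ± 4.73, and Kit, the SCF receptor, 64.7 ± 13.2. Il6st, the chain gp130, reached 95.7 ± 23.9 and Il6ra, which binds IL-6, 24.1 ± 5.54, the lowest of the 6. In normalized counts Il6ra had 888, 1454 and 1056 and Il6st 4621, 7627 and 5088, both highest in replicate 2, while Kit had 3786, 2647 and 2912, highest in replicate 1. The ranges of Il3ra and Kit overlapped on the length-scaled level, so that neither is placed above the other.

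Among other cytokine receptors 13 of 19 were in the top 10%. Csf1r, the receptor of the macrophage factor M-CSF, led at 406 ± 19.5 on the length-scaled level, ahead of Il4ra at 284 ± 26.1, the TNF receptor Tnfrsf1b at 264 ± 32.2 and the interferon gamma receptor Ifngr1 at 260.4 ± 41.7. Csf3r, the G-CSF receptor, was at 74.2 ± 8.4, and Epor, the erythropoietin receptor, at 17.8 ± 6.88. Of the ligands made by the cells themselves, Tgfb1 had 10781, 9589 and 9501 normalized counts and Csf1, the ligand of Csf1r, 3516, 4904 and 3779. Osm (oncostatin M) had 1826, 808 and 1255, Lif 2653, 877 and 1432 and Il6 itself 826, 278 and 651 normalized counts, each highest in replicate 1 and lowest in replicate 2. Kitl, which encodes SCF, had 22.9, 34.8 and 15.98 and Csf2, which encodes GM-CSF, 7.65, 0 and 4.44 normalized counts, and Il3 was not analysed here. Of the ligand genes 3 of 16 were in the top 10%. Of the 11 with a mean of at least 100, 5 had a 2-fold range, against 2.56% of all genes. The count was 0 without replicate 2 and 2 without replicate 1.

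Genes downstream of these receptors (the JAK-STAT list) varied between the libraries about as much as other genes. None of the 18 had a 2-fold range, which was found in 2.56% of all genes with a mean of at least 100. The JAK-STAT list had 8 of 18 members in the top 10% and a median CV of 8.6%, against 8.25% for all genes with a mean of at least 100, which all 18 had. Mcl1, a survival protein, led it with 13118, 16863 and 14702 normalized counts, followed per length by the kinase Pim1 at 232 ± 33.4, the phosphatase Ptpn6 at 181 ± 7.98 and the feedback inhibitor Socs3 at 179.7 ± 21.5. Cish, an early target of STAT5, had 1949, 1640.4 and 1826 and the kinases Jak1 and Jak2 had 5178, 5270.5 and 4655 (Jak1) and 3541, 2906 and 3182 (Jak2) normalized counts.

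Factors that act in myeloid cells led the transcription factors. Of 40 members 13 were in the top 10% and 38 had a mean of at least 10 normalized counts. Among the highest length-scaled levels were those of Cebpb at 738 ± 146, Id2 at 619 ± 12.7, Cebpa at 447 ± 8.73 and Spi1 (PU.1) at 388 ± 17.0. Cebpb, Cebpa and Spi1 are factors of monocytes, macrophages and granulocytes, and Id2 inhibits factors of the E protein family. The ranges of Cebpb and Id2 overlapped, so that their order is not fixed, and a gene on the opposite strand shares 20.7% of the exon bases of Cebpb. Gata2, a factor of progenitors, mast cells and basophils, came next and varied more, with 10943, 5274 and 7959 normalized counts. Then came Nfe2l2 (NRF2), Lmo2, Nfe2 (needed for platelet formation), Myc, Gata1, Irf5, Tfec, Ikzf1, Tal1, Klf4, Maf, Fli1 and Etv6, between 177 ± 1.43 and 64.8 ± 9.57, and neighbours in this order had overlapping ranges, except Lmo2 and Nfe2.

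Below these stood Cebpd, Gfi1b, Runx3, Runx1, Mitf, Irf8, Myb and Klf2, from 50.03 ± 6.57 to 26.3 ± 1.92 on the length-scaled level. Cebpe, which acts late in granulocytes, was at 13.8 ± 3.45, Gfi1 at 13.6 ± 2.58, Klf1 at 11.5 ± 4.62, Erg at 11.04 ± 1.95 and Meis1 at 8.91 ± 1.48. Runx2, Hoxa9, Tcf7, Irf4, Gata3 and Ebf1 followed from 5.48 ± 0.572 to 0.514 ± 0.0817. Pax5 and Bcl11b, factors of B and T cells, had 3.82, 10.4 and 11.5 (Pax5) and 1.91, 4.35 and 8.88 (Bcl11b) normalized counts. Gata1 had 1383, 845 and 1398, Nfe2 1951, 1185 and 1930.4 and Myb 1418, 1020.5 and 1546 normalized counts, each lowest in replicate 2, whereas Id2 and Maf hardly varied at 8071, 8299.7 and 8123 (Id2) and 3000.4, 3093 and 3098 (Maf).

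**Figure D3:**
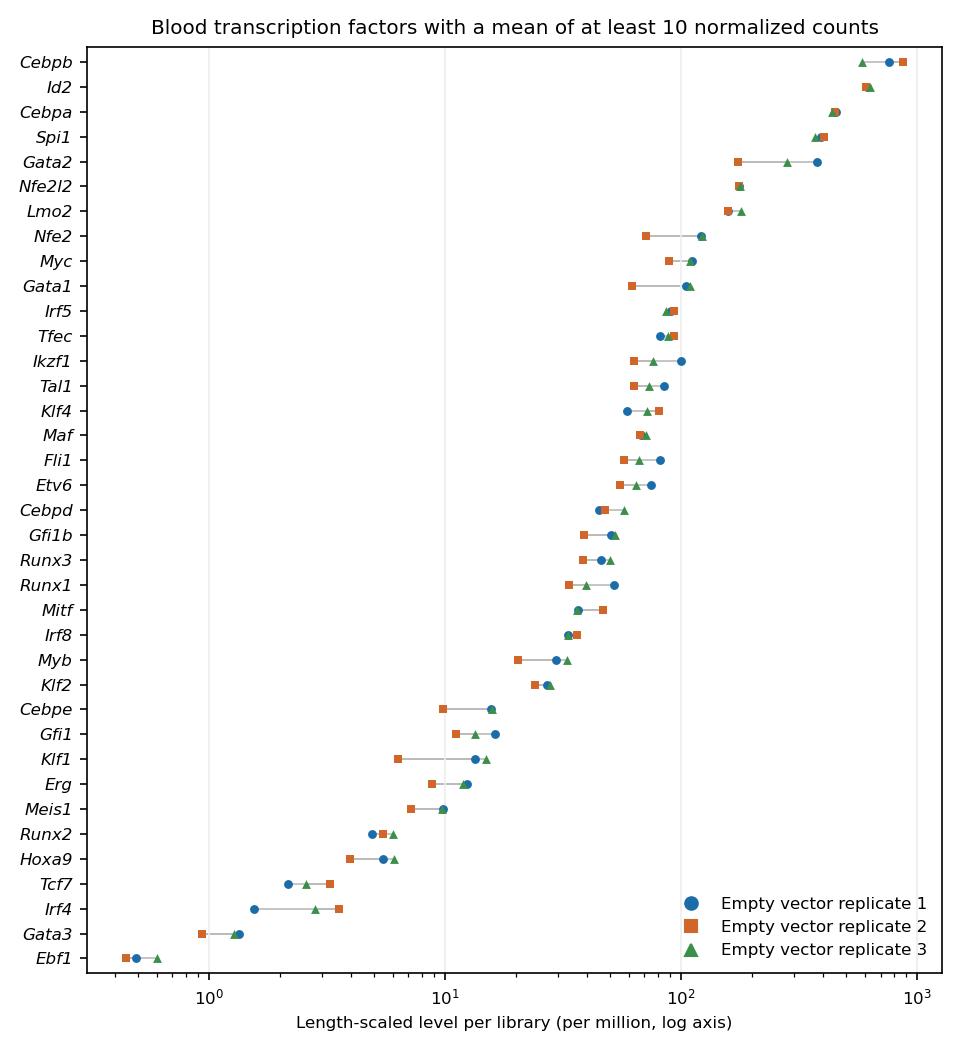
Length-scaled level (normalized counts per kilobase, scaled to a total of 1000000, log axis) of 37 of the 38 blood transcription factors with a mean of at least 10 normalized counts, 1 point for each Empty vector library. The means run down from 738 for Cebpb to 0.514 for Ebf1, and Gata2, Nfe2, Gata1 and Klf1 lie lowest in replicate 2.

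Genes of cell division were all expressed, and nearly all followed the same order of libraries. Of 29 members 4 were in the top 10%, and the median percentile was 79.5. Mki67, a marker of cycling cells, had 5843, 3347 and 4596 normalized counts, Top2a, a topoisomerase of dividing cells, 4191, 2871 and 3458 and Pcna, the sliding clamp of DNA replication, 1806, 1761 and 1539.7. Of the 29, 28 were highest in replicate 1 and 27 were lowest in replicate 2, against 37.8% and 37.3% of all genes, with a median log2 of library value over mean of 0.28, -0.31 and -0.02. The exceptions were Pcna, lowest in replicate 3, and Ccnd1 (cyclin D1), with 109, 253 and 132 normalized counts, while its relatives Ccnd2 and Ccnd3 had 2523, 1711 and 1724 (Ccnd2) and 3890.4, 2666 and 3387 (Ccnd3).

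The same ordering, replicate 1 highest and replicate 2 lowest, was seen for most cell division, primary granule and basophil genes. The reverse was seen for most matrix enzymes. Of 28 macrophage members with a mean of at least 10, 16 were highest in replicate 2, against 36.4% of all genes. The median log2 of library value over mean was 0.28, -0.38 and 0.01 for primary granules, -0.17, 0.18 and -0.09 for macrophages and -0.42, 0.33 and -0.02 for matrix enzymes, against 0.01, -0.01 and -0.02 for all genes. All lists come from the same 3 libraries, so these orderings are not independent of each other, and 3 libraries of one group give no test. Whether the mix of cells or the level per cell differed between them was not tested.

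**Figure D4:**
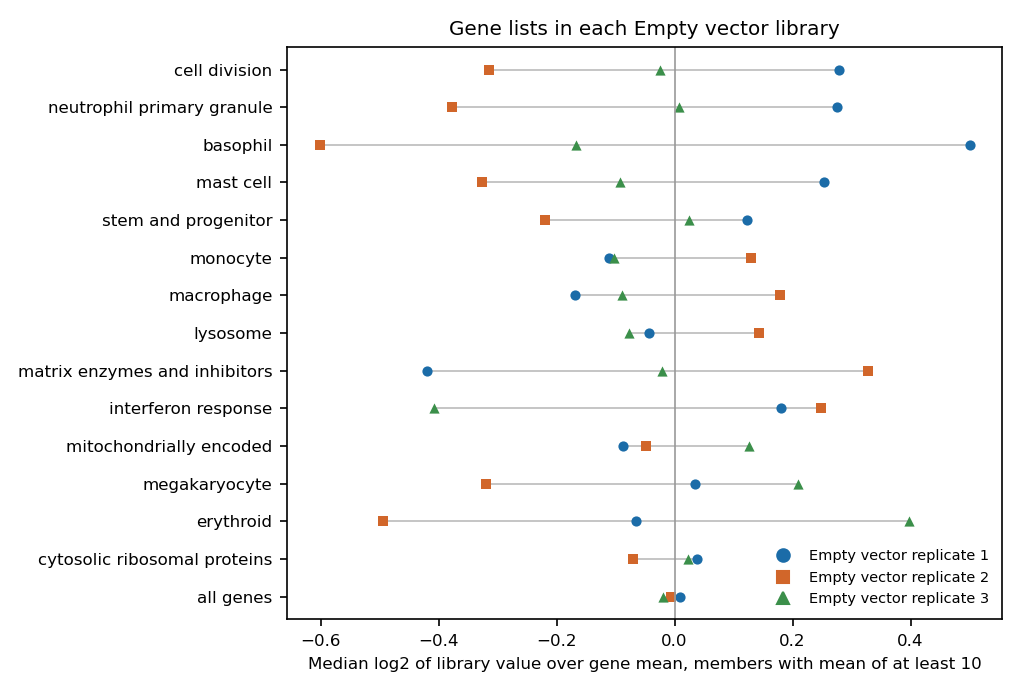
Median over list members of the log2 ratio of the library value to the gene's mean over the 3 libraries, for members with a mean of at least 10 normalized counts. Replicate 1 lies at the right for cell division, primary granule, basophil and mast cell genes, replicate 2 for matrix enzymes and macrophage genes, and replicate 3 for megakaryocyte and erythroid genes; interferon genes lie at the left in replicate 3.

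Ribosomal and translation genes varied little between libraries. Cytosolic ribosomal proteins had a median CV of 5.9% and translation factors of 4.2%, and 43 of 81 and 9 of 12 were in the top 10%. Eef1a1 and Eef2, elongation factors of translation, had 49998, 49573 and 50116 (Eef1a1) and 47349, 44498 and 45893 (Eef2) normalized counts. Rplp1, Rps15, Rpl4 and Rpl8 led the ribosomal proteins, between 3592 ± 157 and 1789 ± 146 on the length-scaled level. Rps6 at 2.99 ± 0.586 and Rpl24 at 2.76 ± 1.95 stood far below them, although these proteins belong to the same ribosome. Many of these genes have processed copies elsewhere in the genome, so their levels are uncertain, and how such reads were counted was not tested. The 7 mitochondrial messengers with a mean of at least 10 lay at or above percentile 99.9. Of these 6 were highest in replicate 3, against 25.8% of all genes. Only 8 of the 13 listed mitochondrial messengers were analysed here, so the rank of the others is not known. Among cytoskeletal genes Tmsb4x (thymosin beta 4) had 27913, 27019 and 27113, Actb 39256, 38466 and 33989.6 and Vim (vimentin) 49940.0, 99432 and 60037 normalized counts, with 13 of 16 in the top 10%.

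Of the glycolysis list, 8 of 14 members were in the top 10%. Ldha (lactate dehydrogenase) and Pkm (pyruvate kinase) had 17943, 17692 and 17105 (Ldha) and 21773, 21930.0 and 19798 (Pkm) normalized counts. Gapdh had 1826, 1862 and 2007 normalized counts, below either of them on the length-scaled level, and its many processed copies make this value uncertain. In the iron list, 4 of 9 were in the top 10%: Fth1 had 144609.7, 190018 and 165512, Ftl1 (the ferritin light chain) 22721, 25558 and 24215 and Hmox1 (heme oxygenase) 6904, 9217 and 7624 normalized counts. The transferrin receptor Tfrc, by contrast, had 3511, 1414 and 2210.1 normalized counts and was highest in replicate 1.

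Several chemokine genes were abundant. Of 17 chemokine ligands 10 were in the top 10%. Within the list Ccl6 led with 104554, 93090.0 and 84493 normalized counts, then Pf4, Ccl9 with 18942, 19226 and 12225 and Ccl2 with 3851, 5267 and 4477. The chemokine gene Ccl8 is outside the list, and its length-scaled level of 6206 ± 2604 overlapped that of Pf4, 5438 ± 1223. The neutrophil chemokines Cxcl1 and Cxcl2 had 3.82, 2.61 and 7.99 (Cxcl1) and 53.5, 24.4 and 50.6 (Cxcl2) normalized counts. Immediate early genes had 12 of 18 members in the top 10%, among them Ier3, Fos, Junb and Dusp1, the last a phosphatase that ends MAP kinase signals, with 4711, 6197 and 6680.0 normalized counts. The inducible heat shock genes Hspa1a and Hspa1b had 13.4, 12.2 and 11.5 (Hspa1a) and 6.69, 6.1 and 7.1 (Hspa1b) normalized counts.

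Interferon response genes were expressed at middling levels and were lowest in replicate 3. Of 20 members 1 was in the top 10% and the median percentile was 63.4. Bst2 (tetherin) had 1474, 1201 and 1046 normalized counts, Irf7, a regulator of interferon genes, 840.2, 729 and 249 and Oasl2, a relative of the antiviral oligoadenylate synthetases, 859, 970.0 and 324. Ifit1 and Ifit3, antiviral proteins that bind RNA, had 168, 189.8 and 55.0 (Ifit1) and 66.9, 71.4 and 15.1 (Ifit3) normalized counts. Replicate 3 was lowest for 19 of the 20, against 32.6% of all genes, and the median log2 of library value over mean was 0.18, 0.25 and -0.41. The exception was Ifi47, with 1224, 1016 and 1093 normalized counts. Of the members with a mean of at least 100, 5 of 17 had a 2-fold range, against the 2.56% of all genes, and none did without replicate 3.

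The core of the interferon-stimulated response element (TTTC, 2 bases, TTTC, searched on both strands) was found in the 250 bases before the start for 8 of 17 interferon genes with a listed start, Bst2, Stat2, Gbp2, Rsad2, Ifit1, Isg15, Ifit3 and Cxcl10, and for 331 of 9920 genes (3.34%). The 2 members with the highest length-scaled level among these, Bst2 (chr8:71537473-71537722, minus strand) and Gbp2 (chr3:142620413-142620662, plus strand), are shown in GRCm38.p6 with the matches in capitals; in Bst2 a pair of overlapping matches lies on the strand opposite to the one printed:
Bst2: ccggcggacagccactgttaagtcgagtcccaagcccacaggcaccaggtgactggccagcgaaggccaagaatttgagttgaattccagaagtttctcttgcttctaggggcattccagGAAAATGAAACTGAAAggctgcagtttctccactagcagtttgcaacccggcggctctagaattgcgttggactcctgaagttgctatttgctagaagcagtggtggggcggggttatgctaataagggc
Gbp2: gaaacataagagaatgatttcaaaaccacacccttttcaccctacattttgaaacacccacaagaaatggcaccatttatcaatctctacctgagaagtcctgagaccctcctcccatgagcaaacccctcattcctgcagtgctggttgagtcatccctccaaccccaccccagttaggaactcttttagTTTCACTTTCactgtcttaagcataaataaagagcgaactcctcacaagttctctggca
A match is a description of the letters and not of a factor bound there.

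Spread between the libraries exceeded counting error for most abundant genes. The median CV was 10.1% over genes with a mean of at least 10 normalized counts and 7.35% over those with at least 1000, where counting error alone gives 2.21%. The common biological CV from edgeR was 13.91%, and the correlation across genes of log2(normalized count + 1) was 0.984, 0.989 and 0.987 for replicates 1 and 2, 1 and 3, and 2 and 3. Of the 257 genes with a 2-fold range, replicate 1 was highest in 123, replicate 2 in 103 and replicate 3 in 31, and replicate 2 was lowest in 134.

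Among genes with a mean of at least 1000 the largest CVs belonged to Mamdc2 (85.4%), Mmp13 (75.1%), Fn1 (73.7%), Spp1 (71.6%), Cd36 (71.5%), Slco4a1 (68.9%), Prss34 (66.4%) and Tgfbi (65.0%). Fn1, the matrix protein fibronectin, had 2688, 10754 and 4093 normalized counts and Tgfbi, a secreted matrix protein induced by TGF-beta, 5338, 19937 and 9451. Cd36, a scavenger and fatty acid receptor, had 1609, 3536 and 782, with replicate 3 lowest, and Mamdc2 had 859, 3829 and 1105 normalized counts. The transporter gene Slco4a1 had 1807, 414 and 872 normalized counts, highest in replicate 1 like Prss34. Mamdc2, Mmp13, Fn1, Spp1, Cd36 and Tgfbi were all highest in replicate 2.

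The smallest CVs among such genes were those of Kdm3b, Kmt2c, Emc10, Strn4, Ddx1, Idh3b, Dnajc8 and Trpc4ap, between 0.0795% and 0.372%. Kdm3b, a histone demethylase, had 1495, 1494 and 1493 normalized counts and Ddx1, an RNA helicase, 1527, 1527 and 1534. All 8 lie below the median counting error of such genes, 2.21%.

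**Figure D5:**
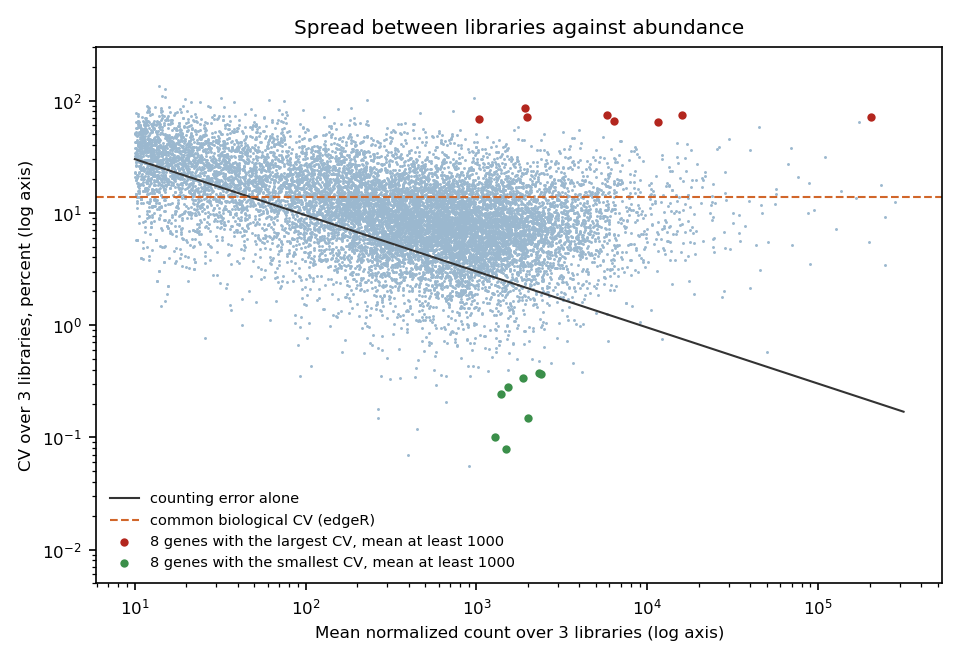
CV over the 3 Empty vector libraries (percent, log axis) against the mean normalized count (log axis) for genes with a mean of at least 10, with the CV that counting error alone gives (black line) and the common biological CV of 13.91% (dashed line). The genes with the largest CV (red) lie between 65.0% and 85.4%, and most abundant genes lie above the line of counting error.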

How the data were processed

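The authors deposited normalized counts per gene for 9 libraries, and the values are used here as a signal scaled by a size factor. Per the submitters' processing notes, cutadapt, STAR 2.4.2a, HTSeq, DESeq2 and GRCm38 were used; the gene annotation and strand setting are not given in the sources used here. Values were whole multiples of 1 read (100.0% within 0.01), which gave 17.52, 20.38 and 18.59 M reads. At 100 reads the 95% counting interval is ± 19.6%, and intervals cover counting error only.

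Computation used Python 3.11.15, pandas 2.3.3, numpy 2.4.6, matplotlib 3.10.9, R 4.3.3 and edgeR 4.0.16 (common biological CV, tested on simulated data). Length was the union of exons in the mouse GENCODE release M21, for 98.0% of genes, 205 of them by synonym, and 33 ambiguous symbols had none. Promoters were 250 bases before the RefSeq start (GRCm38.p6), searched for 9 patterns. A mean of 10 normalized counts was the minimum for spread, 100 for 2-fold ranges and 1000 for extreme CVs.

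The members and the 33 lists were chosen with earlier results of these data known. Named genes were the 20 highest by count and per length, the 4 highest of each list, all cytokine receptors of the culture and all blood transcription factors, and the 8 largest and smallest CVs. Some genes that these rules name are not reported here. Of 581 listed genes, 45 were not analysed here. There was 1 group and no test.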

Additional observations from a re-analysis of the deposited data

How the results depend on the processing

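No paired analysis was possible because only 1 group was described. Of the 33 median percentiles, 32 moved by less than the spread between libraries without replicate 1, 30 without replicate 2 and 32 without replicate 3. That spread comes from the same libraries, so leaving 1 out could seldom move a value beyond it, and these counts show little. With TMM factors 32 moved by less, with the median of the libraries 28 and with the longest transcript as length 22. Without division by length 13 did, and 9 when only genes with a mean of at least 10 were ranked. Without division by length the median was 84.2 for primary granule, 43.1 for late neutrophil, 37.4 for eosinophil, 48.7 for erythroid, 90.1 for megakaryocyte and 36.2 for B cell genes. With the longest transcript it was 53.3 for late neutrophil, 54.0 for erythroid, 93.1 for megakaryocyte and 99.5 for lysosomal genes. Ranked among genes with a mean of at least 10 it was 62.6 for late neutrophil, 84.9 for basophil, 34.6 for eosinophil, 50.7 for erythroid, 16.4 for T cell and 99.5 for lysosomal genes, 12.5 for stroma and endothelium and 88.6 for the 1 NK member left, the largest of these moves. With the median of the libraries it was 60.2 for late neutrophil and 98.9 for macrophage genes. Leaving out 1 library gave 98.8 to 99.4 for macrophage genes and 49 to 197 genes with a 2-fold range, lowest without replicate 2 in both cases. Per length, 200 genes held 50% of the level and the first 100 held 42.89%. The cause of the moves was not tested. All 30 checks of the 10 library patterns, with TMM factors and with 2 scalings chosen after seeing the data (upper quartile and read totals alone), stayed within 1.5 times. The largest shift of the median gene under these scalings was -0.062 on the log2 scale, in replicate 2.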

Other observations

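Of the 100 genes with the highest length-scaled level, 36 were in none of the lists, and those named here were chosen after their values were seen. Genes of MHC class I were among them. B2m, its light chain, had 55654, 62698 and 49202 normalized counts, and the heavy chains, whose reads can be shared with close relatives, had 47978, 50714 and 41659.6 (H2-D1) and 18629.8, 20703 and 17012 (H2-K1). Tyrobp, a signalling adaptor of myeloid receptors, had 12777, 13320.3 and 11539 normalized counts, and Fcgr3, a low-affinity receptor for IgG, had 15733, 18563 and 17876. The inhibitors of cathepsins Cst3 (cystatin C) and Cstb (cystatin B) had 18879, 24934 and 18754 (Cst3) and 4740.1, 6018 and 4421 (Cstb) normalized counts.

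Several other abundant genes outside the lists encode secreted proteins. The chemokine gene Ccl8 had 24060.0, 10153 and 16992 normalized counts, highest in replicate 1 and lowest in replicate 2. Selenop, the plasma selenium carrier, had 62593, 47040.0 and 59551 normalized counts and Gpx1, a glutathione peroxidase that contains selenium, had 9073, 12244 and 9164. Mfge8, a bridge between dying cells and macrophages, had 20557, 45367 and 23867 normalized counts. Atp6v0d2, a subunit of the vacuolar proton pump found in osteoclasts and macrophages, had 16238, 23437 and 18055 normalized counts. Lgals1, galectin-1, had 13401, 13272 and 11115 normalized counts. Akr1c18, an enzyme that breaks down progesterone, was not among the 100 but had one of the wider ranges, with 2123, 198 and 563 normalized counts.

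The ranking has limits. Bulk libraries give no count of cells, and 61 genes are in more than 1 list. With 3 libraries of 1 group there is no test, and a group of 3 is too small to test a single library for standing apart. A gene's exons from the annotation stand in for the transcripts the cells used. How reads were divided between near-identical copies is unknown, and 341 genes had no length.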
